A study of Mus musculus with 20 samples.

Results

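The cytosolic ribosomal protein genes of ATDC5 cells were described in RNA-seq of clonal lines with and without the histone methyltransferase Kmt2d. ATDC5 is a mouse line that turns into cartilage-like cells in culture. The members were protein-coding genes whose symbol begins with Rpl or Rps and a digit, together with Rpsa, Rplp0, Rplp1 and Rplp2. Kinases of the Rps6k family, symbols of pseudogenes and genes with a mean under 5 CPM, counts scaled to the size of the library, were left out. Of the 27911 genes in the table, 86 matched by symbol and 79 of these passed the minimum. They comprised 47 genes of the large (60S) subunit, 30 of the small (40S) subunit, and 2 that match by symbol only. Those 2 were Rps19bp1, which encodes a binding partner of Rps19, and Rpl7l1, a relative of Rpl7.

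The 2 Kmt2d-/- clones (named 10-7 and 96-9 in the labels, here clones 1 and 2) lacked the catalytic SET domain, deleted on both alleles. The 3 Kmt2d+/+ clones (10-5, 10-7 and 10-8, here clones 1 to 3) were wild-type lines. Each clone was harvested after 7 days in medium with insulin, transferrin, selenium, ascorbic acid and β-glycerophosphate (day 7), and undifferentiated in DMEM/F12 with 5% fetal bovine serum (day 0). This gave 2 Kmt2d-/- and 3 Kmt2d+/+ libraries at day 7, and 2 Kmt2d-/- and 3 Kmt2d+/+ libraries at day 0. Each clone is a distinct clonal line, so a group holds clonal variation along with any effect of genotype, and these cannot be told apart with so few clones. Kmt2d itself, summed over its whole length, had 174.8 and 113.3 CPM in Kmt2d-/- clones and 186.7, 173.3 and 207.0 CPM in Kmt2d+/+ clones at day 7, and 205.2 and 148.0 CPM in Kmt2d-/- clones and 210.8, 185.4 and 194.6 CPM in Kmt2d+/+ clones at day 0. These counts hold the gene outside the deleted domain and so do not check the deletion. Libraries held 35792773 to 66237188 estimated counts over 2 sequencing runs. The summed level of 12 chondrocyte markers was 26943.0 to 31351.4 CPM in Kmt2d-/- and 601.0 to 1251.0 CPM in Kmt2d+/+ clones at day 7, and 1974.9 to 6171.2 CPM in Kmt2d-/- and 53.5 to 414.9 CPM in Kmt2d+/+ clones at day 0. Summed osteoblast markers (6 genes) were 1274.3 to 1597.9 CPM in Kmt2d-/- and 1214.9 to 1968.3 CPM in Kmt2d+/+ clones at day 7, and 553.3 to 739.5 CPM in Kmt2d-/- and 384.5 to 804.4 CPM in Kmt2d+/+ clones at day 0. Over all libraries the 5 adipocyte markers summed to 5.84 to 24.5 CPM and the 5 endothelial markers to 4.77 to 8.79 CPM. The 5 skeletal muscle markers summed to 1.22 CPM or less, the 6 immune markers to 3.52 CPM or less and the 4 epithelial markers to 1.99 CPM or less in every library. In bulk RNA, fewer cells of a type and less RNA per cell cannot be told apart, and the part of the chondrocyte markers' difference in the results below was not tested.

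Ribosomal proteins assemble with ribosomal RNA in the nucleolus into the 40S subunit, which reads the messenger RNA, and the 60S subunit, which forms the peptide bond. Their messages are abundant in every growing cell, and many begin with a C followed by a run of pyrimidines, the terminal oligopyrimidine tract through which mTOR and Larp1 control their translation. In humans, loss of 1 copy of several of these genes causes Diamond-Blackfan anaemia, and in mice a mutation of Rpl38 alters the axial skeleton. Chondrocytes secrete large amounts of matrix protein.

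The tract could be read at the annotated starts of some members. RefSeq promoter windows (GRCm38.p6) were matched to 60 of the 79 genes. In 13 of the 60 (21.7%) the annotated first base was a C followed by at least 4 pyrimidines, against 2.48% of the 27025 genes in the table. The letters CTTTCC or CTTTTC lay within 20 bases of the start on the gene's strand in 13 of 60 (21.7%), against 3.25% of all genes. CCGGAAG, the core of ETS factor motifs, was present on either strand between 250 bases before and 50 bases after the start in 24 of 60 (40%), against 9.14% of all genes. The TATA box letters TATAAA were present in 6 (10.0%), against 14.2%, and ATGGCGGC, the core of the YY1 motif, in 3 (5.0%), against 2.38%. The ETS, TATA box and YY1 letters were searched on both strands, and the start motifs, which can overlap each other, on the gene's strand. These are matches of letters, not sites. The windows below run from 40 bases before the annotated first base, which is base 41, and capitals mark the unbroken pyrimidine run that holds that base. They were chosen to show the tract in 5 members, and 2 windows without such a run at the annotated first base. Those 2 are of genes that passed a test. Runs elsewhere in a window are not marked, such as one ahead of the annotated first base of Rpl5. Whether a message begins there was not tested.
Rpl28: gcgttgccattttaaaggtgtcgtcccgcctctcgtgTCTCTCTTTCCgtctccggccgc
Rpl38: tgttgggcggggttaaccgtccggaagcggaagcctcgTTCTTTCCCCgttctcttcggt
Rplp2: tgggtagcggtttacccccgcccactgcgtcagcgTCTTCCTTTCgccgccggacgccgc
Rps6: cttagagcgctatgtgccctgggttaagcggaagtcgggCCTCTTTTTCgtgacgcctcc
Rps18: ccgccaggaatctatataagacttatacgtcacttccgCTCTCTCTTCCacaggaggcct
Rpl36al: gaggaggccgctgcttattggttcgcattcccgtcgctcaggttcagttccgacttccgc
Rpl5: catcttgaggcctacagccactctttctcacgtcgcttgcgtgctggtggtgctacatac
The windows lie at chr7:4792925-4792984 (plus strand) for Rpl28, chr11:114668540-114668599 (plus) for Rpl38, chr7:141447611-141447670 (plus) for Rplp2, chr4:86857348-86857407 (minus) for Rps6, chr17:33955646-33955705 (minus) for Rps18, chr12:69184048-69184107 (minus) for Rpl36al and chr5:107900488-107900547 (plus) for Rpl5.

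Several members are pairs of related genes, and their coding sequences show which can be told apart by reads. Rpl36al and Rpl36a encode nearly the same 60S protein, and they differ at 39 of 321 coding bases (87.9% identity). Rps27l, a gene known as a p53 target, and Rps27 differ at 61 of 255 coding bases (76.1% identity). The coding bases of both are given, from the GRCm38 reference, with the differing bases in capitals.
Rps27l: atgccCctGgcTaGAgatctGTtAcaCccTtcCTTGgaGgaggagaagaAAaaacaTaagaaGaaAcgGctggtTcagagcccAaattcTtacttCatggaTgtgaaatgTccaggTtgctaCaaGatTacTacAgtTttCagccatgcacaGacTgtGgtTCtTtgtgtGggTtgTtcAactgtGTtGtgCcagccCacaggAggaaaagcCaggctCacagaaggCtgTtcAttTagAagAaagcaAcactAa
Rps27: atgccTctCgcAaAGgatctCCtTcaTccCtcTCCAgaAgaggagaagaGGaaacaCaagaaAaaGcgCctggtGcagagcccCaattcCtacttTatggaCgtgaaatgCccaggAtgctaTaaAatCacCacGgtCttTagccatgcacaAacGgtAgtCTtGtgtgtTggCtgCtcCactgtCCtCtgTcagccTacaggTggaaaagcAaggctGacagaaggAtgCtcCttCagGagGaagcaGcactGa
Rps27rt, a further gene on chromosome 9, has the same 255 coding bases as Rps27 on chromosome 3 and differs from it at 0 of them. The split of reads between Rps27rt and Rps27 is therefore uncertain. Rpl39l, a relative of Rpl39 that is mainly known from mouse testis, differs from Rpl39 at 23 of 156 bases (85.3% identity).

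Most members also have near-identical copies, mostly pseudogenes, and these took a large part of the counts. A coding-sequence search (at least 90% identity over at least 70% of the coding sequence) found 640 rows that copy one of the 86 matching genes and are not among those 86 themselves, of which 625 are annotated as pseudogenes. Among the members 70 had at least 1 copy, and 56 copies had a mean of at least 5 CPM. The coding sequence was identical over its whole length in 18 of those 56. A gene's own row held at least 95% of the summed CPM of gene and copies for 41 members, 50% to 95% for 17 and under 50% for 21. Rps27 and Rps27rt, being members both, are not counted here as copies of each other. Rpl5, which carries 5S ribosomal RNA into the large subunit, averaged 27.8 CPM on its own row, while its identical copy Gm15500 averaged 887.2 CPM, so that 3.04% of the sum lay on Rpl5. Rpl3, a protein near the peptidyl transferase centre, held 5.79% of its sum, and Rpl12 held 7.79%. Reads from stretches that a gene shares with a copy cannot be assigned, so the levels on these 21 rows are uncertain.

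**Figure D1:**
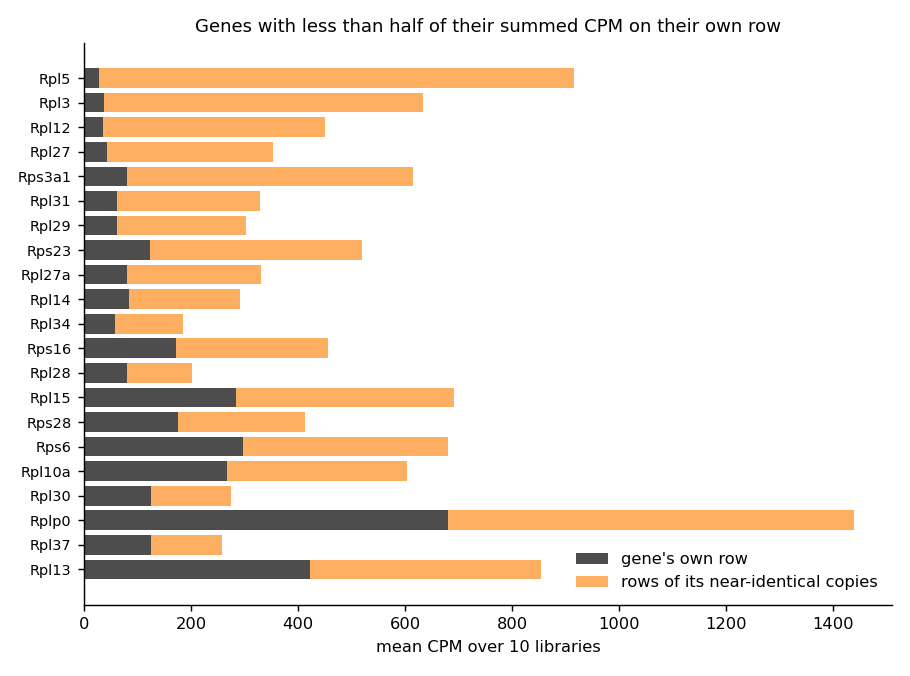
Mean CPM over the 10 libraries for the 21 genes with under 50% of their summed CPM on their own row. Dark bars are the gene's own row and orange bars the rows of its near-identical copies, and the rows run from Rpl5, with 3.04% on its own row, at the top.

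Levels differed by over 2 orders of magnitude among members per length. The scale was CPM per kilobase of an annotated transcript chosen for each gene. A principal transcript was preferred, then the longest coding sequence, then the shortest transcript. The highest were Rps2 (1801.6), Rpl41 (1635.5), Rplp1 (1626.3), Rpl32 (1240.5) and Rps18 (1201.9). Rps2 is a core protein of the 40S subunit, Rpl41 is the smallest ribosomal protein, and Rplp1 belongs with Rplp0 and Rplp2 to the stalk that recruits elongation factors. The lowest were Rpsa (10.0), Rps7 (12.3), Rpl5 (13.6), Rps19bp1 (25.4) and Rpl3 (27.1). Rpsa and Rps7 were low although 76.0% and 96.7% of the sum with their copies lay on their own rows. The copy search covered only genes with a row in the deposited counts. Why these rows were low was not tested, so their levels are uncertain too.

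The members' summed share of each library's counts showed how the whole set varied. At day 7 it was 2.76% and 2.44% in Kmt2d-/- clones 1 and 2, while Kmt2d+/+ clones 1 to 3 had 2.99%, 2.31% and 2.34%. At day 0 it was 1.87% and 2.34% in the Kmt2d-/- clones and 2.41%, 2.31% and 2.61% in the Kmt2d+/+ clones. Kmt2d-/- clone 1 at day 0 was the lowest of the 10 libraries and Kmt2d+/+ clone 1 at day 7 the highest, and the groups overlapped at both days. After TMM scaling the members summed to 29606.3 and 24399.7 CPM in Kmt2d-/- clones and 28745.6, 21976.5 and 21101.8 CPM in Kmt2d+/+ clones at day 7. At day 0 the sums were 21299.7 and 22188.7 CPM in Kmt2d-/- clones and 24751.5, 23317.7 and 26346.0 CPM in Kmt2d+/+ clones. On that scale the groups overlapped at day 7 and not at day 0, where both mutant clones were lower. The mean share at day 7 was 2.60% ± 0.224 (SD, n = 2) in Kmt2d-/- and 2.54% ± 0.386 (n = 3) in Kmt2d+/+ clones. At day 0 it was 2.11% ± 0.330 (n = 2) in Kmt2d-/- and 2.44% ± 0.152 (n = 3) in Kmt2d+/+ clones. Adding the copies brought the shares to 2.65% to 4.27% over the 10 libraries. The 2 runs of a library differed by a median of 0.0401 to 0.164 in log2 CPM over the members, with the largest value in Kmt2d-/- clone 2 at day 7.

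At day 7, 4 of the 79 members were higher in Kmt2d-/- than in Kmt2d+/+ clones and 0 were lower. They included Rpl36al, Rps29 and Rpl5, and the 4 differences were 1.86- to 2.33-fold. A gene was called where its p, adjusted by Benjamini and Hochberg's method, was under 0.05 in edgeR's quasi-likelihood test over all 15467 genes tested. In this comparison 1.87% of all genes passed, with 0.905% higher and 0.97% lower, against 5.06% of the members higher. At an unadjusted p under 0.05 there were 8 of the 79 members, all higher, and 19.9% of all genes. The median log2 fold change of the members was 0.20, with 62 of 79 positive, beside -0.02 over all genes. It was 0.21 for the 47 genes of the 60S subunit (40 positive) and 0.20 for the 30 of the 40S subunit (21 positive). Both Kmt2d-/- clones lay above all 3 Kmt2d+/+ clones for 15 members (19.0%) and below them for 0 members (0.0%), where 17.9% and 19.8% of all genes did so. Without Kmt2d-/- clone 1 the median was 0.05, and without Kmt2d+/+ clone 1 it was 0.33.

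Rpl36al, the relative of Rpl36a, lies at chr12:69182731-69184083 (GRCm38, minus strand). It had 105.6 and 116.0 CPM in Kmt2d-/- clones and 55.9, 51.5 and 46.9 CPM in Kmt2d+/+ clones at day 7. The groups did not overlap, and Rpl36al was 2.15-fold higher in the mutants (log2 fold change 1.11 ± 0.17 SE, edgeR adjusted p = 0.0235). Rpl36a itself had 103.9 and 90.4 CPM in Kmt2d-/- clones and 107.2, 67.6 and 73.9 CPM in Kmt2d+/+ clones. These overlapped, and Rpl36a did not pass (0.23 ± 0.22, edgeR adjusted p = 0.63). The difference between the fold changes of Rpl36al and Rpl36a was not tested.

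Rps29 is a protein of the head of the 40S subunit, and RPS29 is mutated in some human cases of Diamond-Blackfan anaemia. Rps29, at chr12:69157722-69159186 (minus strand) beside Rpl36al, had 128.9 and 142.4 CPM in Kmt2d-/- clones and 78.9, 45.5 and 50.1 CPM in Kmt2d+/+ clones at day 7. The groups did not overlap, and the gene was 2.33-fold higher in the mutants (log2 1.22 ± 0.25 SE, edgeR adjusted p = 0.0492). Its identical copy Gm14303 had 67.9 and 82.7 CPM in Kmt2d-/- clones and 40.5, 21.2 and 27.7 CPM in Kmt2d+/+ clones, and with all copies added Rps29 was higher by 1.26 ± 0.26 (edgeR adjusted p = 0.0480).

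Rpl5, at chr5:107900502-107909005 (plus strand), had 29.9 and 30.0 CPM on its own row in Kmt2d-/- clones and 15.5, 17.5 and 15.4 CPM in Kmt2d+/+ clones at day 7. The groups did not overlap (log2 0.89 ± 0.16 SE, edgeR adjusted p = 0.0346). The identical copy Gm15500 had 1200.0 and 832.8 CPM in Kmt2d-/- clones and 1066.7, 845.0 and 677.8 CPM in Kmt2d+/+ clones, which overlapped. With the copies added the Rpl5 call was lost (0.25 ± 0.22, edgeR adjusted p = 0.570), while Rpl36al and Rps29 still passed. Rpl11, the partner of Rpl5 in the particle with 5S ribosomal RNA that binds Mdm2, had 451.2 and 380.0 CPM in Kmt2d-/- clones and 345.7, 357.7 and 332.6 CPM in Kmt2d+/+ clones, and did not pass (0.27 ± 0.19, edgeR adjusted p = 0.482).

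The 4 calls rested on few clones, and calls over all genes moved with the clones too. The 290 genes that passed at day 7 became 32 without Kmt2d+/+ clone 1, 272 without clone 2 and 10 without clone 3. Leaving out Kmt2d-/- clone 1, Kmt2d-/- clone 2, Kmt2d+/+ clone 1 or Kmt2d+/+ clone 3 ended all 4, with edgeR adjusted p from 0.0586 to 0.264, and without Kmt2d+/+ clone 2 only Rpl36al (adjusted p = 0.0477) and Rpl5 (adjusted p = 0.0421) passed. Over the 5 omissions the log2 fold change stayed between 1.04 and 1.17 for Rpl36al, 1.07 and 1.5 for Rps29, and 0.86 and 0.95 for Rpl5.

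**Figure D2:**
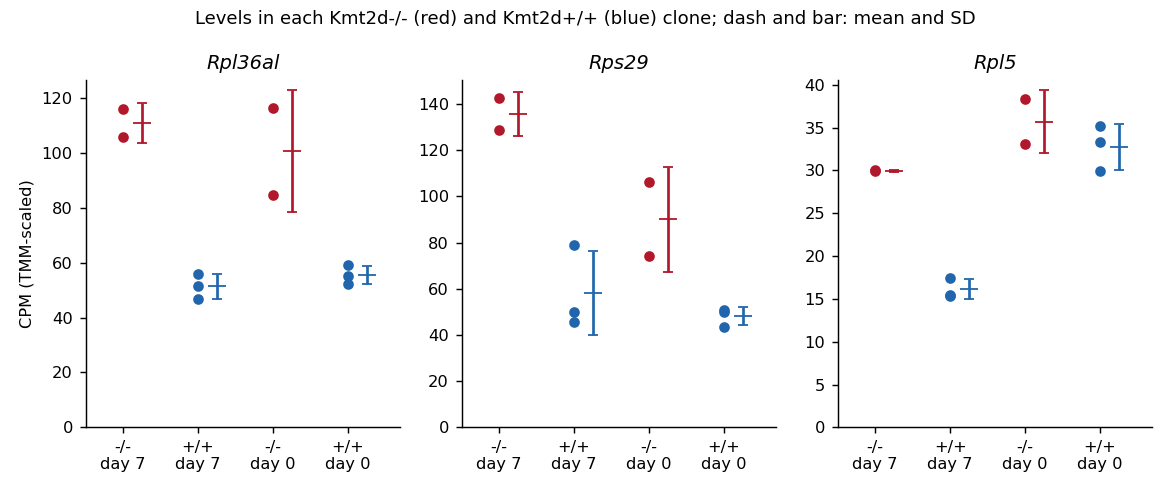
CPM of Rpl36al, Rps29 and Rpl5, which passed at day 7, in each Kmt2d-/- clone (red) and Kmt2d+/+ clone (blue) at day 7 and day 0, with the mean and SD beside the points. For Rpl36al the mutant clones lie at 105.6 and 116.0 CPM at day 7, above the wild-type values of 46.9 to 55.9, and for Rpl5 the groups separate at day 7 and overlap at day 0.

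Among the other members, the next largest differences at day 7 were in Rps9 and Rpl28. Rps9, which sits where messenger RNA enters the 40S subunit, had 422.4 and 251.7 CPM in Kmt2d-/- clones and 263.0, 198.7 and 175.7 CPM in Kmt2d+/+ clones (log2 0.67 ± 0.24, edgeR adjusted p = 0.177). Rpl28 had 146.2 and 63.4 CPM in Kmt2d-/- clones and 79.7, 72.9 and 58.5 CPM in Kmt2d+/+ clones (0.58 ± 0.35, edgeR adjusted p = 0.408). Both overlapped through the lower value of Kmt2d-/- clone 2. The lowest 5 were Rps2, Rps19bp1 (-0.15 ± 0.22), Rps27l (-0.14 ± 0.16), Rplp2 and Rpsa (-0.11), none of which passed. Rps2 had 1695.8 and 1318.8 CPM in Kmt2d-/- clones and 2076.2, 1579.3 and 1686.8 CPM in Kmt2d+/+ clones (-0.24 ± 0.19, edgeR adjusted p = 0.540).

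Several other members with well-known roles did not pass at day 7. Rps14, a protein of the 40S platform, had a log2 fold change of 0.48 ± 0.30, Rps26, which lines the messenger RNA exit channel, 0.41 ± 0.24, and Rpl10a, a protein of the flexible L1 stalk, 0.43 ± 0.21. Rps27a, made as a fusion with ubiquitin, had 0.34 ± 0.23, and Rps6, the substrate of S6 kinase, 0.19 ± 0.18. Rps19, the gene most often mutated in Diamond-Blackfan anaemia, had 0.11 ± 0.19, and Rpl38 had 0.13 ± 0.25. The stalk proteins Rplp0, Rplp1 and Rplp2 had 0.21 ± 0.18, 0.04 ± 0.18 and -0.14 ± 0.16, and Rpl10, which is added last to the 60S subunit, 0.11 ± 0.16. The edgeR adjusted p of these members was 0.283 or higher.

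**Figure D3:**
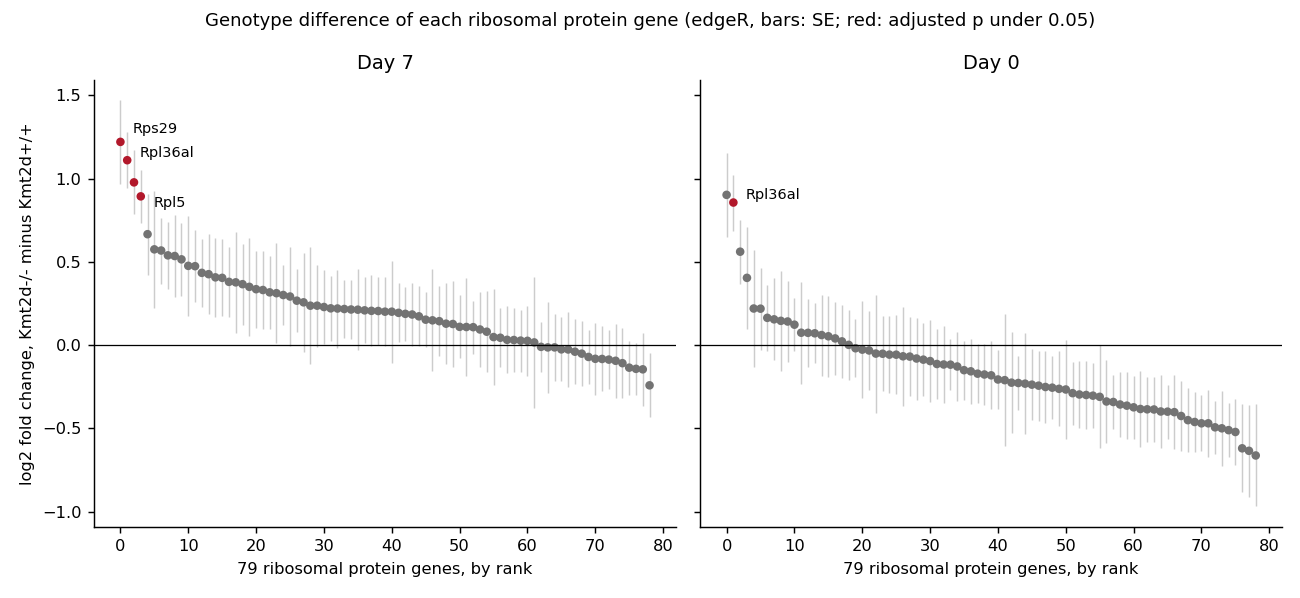
Log2 fold change, Kmt2d-/- minus Kmt2d+/+, of each of the 79 genes in order of size at day 7 (left) and day 0 (right), with standard errors. Red points passed at an adjusted p under 0.05, 4 genes at day 7 and 1 at day 0, and the median is 0.20 at day 7 and -0.18 at day 0.

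The members' genotype differences went with those of their chromosomal neighbours. For each member the median log2 fold change was taken over the other tested genes that start within 5 Mb, without ribosomal protein genes and their copies. It was above 0.3 at both days for 5 members, among them Rpl36al and Rps29 on chromosome 12 and Rps9 and Rpl28 on chromosome 7. At day 7 the 54 neighbours of Rpl36al had a median of 0.735 and those of Rps29 the same, the 64 of Rps9 had 0.42 and the 65 of Rpl28 had 0.41. At day 0 these medians were 0.745 for Rpl36al and for Rps29, 0.355 for Rps9 and 0.346 for Rpl28. The 86 neighbours of Rpl5 had a median of 0.05 at day 7 and 0.03 at day 0. For the other 74 members the neighbour median lay between -0.35 and 0.24 at day 7, and 1 of the 74, Rpl5, passed.

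Across the 79 genes, the member's own log2 fold change and its neighbour median had a Pearson r of 0.83 and a Spearman rho of 0.75 at day 7, and of 0.80 and 0.70 at day 0. Without the 5 members above 0.3 the Pearson r was 0.67 at day 7 and 0.60 at day 0 over 74 genes. This is a description across genes, which are not independent replicates, since genes close together share neighbours and both axes come from the same libraries and scaling. At day 7 the 33 members whose neighbour median was above 0 had a median of 0.37, with 33 positive, and the 46 others had 0.05, with 29 positive. At day 0 the 37 members with a neighbour median above 0 had a median of -0.02, with 18 positive, and the 42 others had -0.32, with 1 positive. The member exceeded its neighbour median in 77 of 79 cases at day 7 and in 13 of 79 at day 0. The part of the chromosomal position in the calls was not tested.

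**Figure D4:**
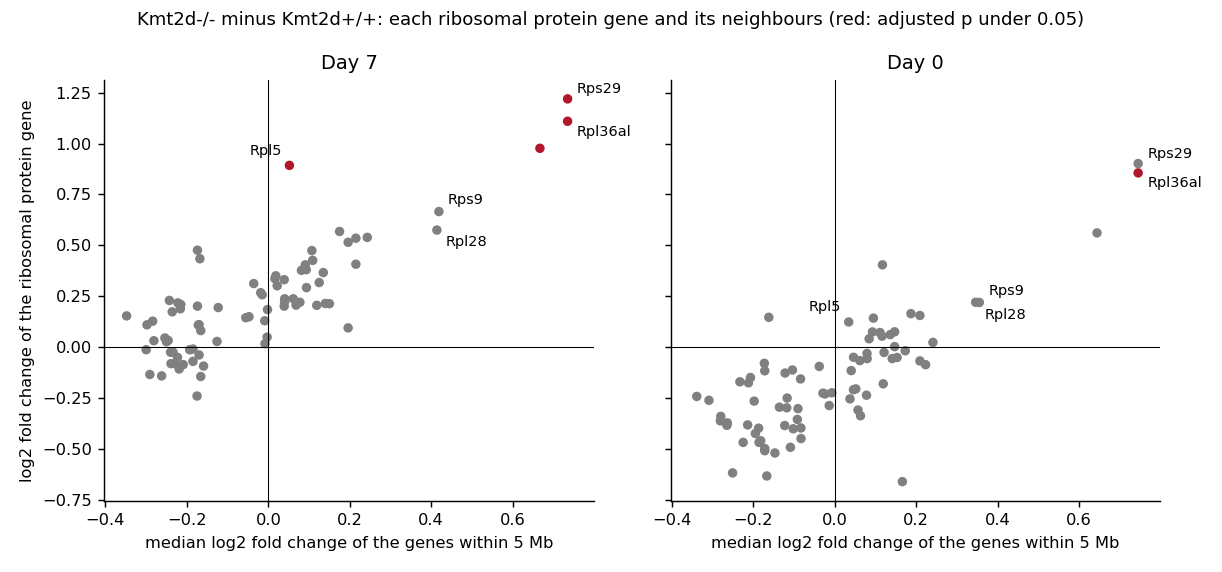
Log2 fold change, Kmt2d-/- minus Kmt2d+/+, of each ribosomal protein gene against the median of the other genes within 5 Mb, at day 7 (left) and day 0 (right). Rps29 and Rpl36al lie at the upper right at both days, and Rpl5 stands above genes with a like neighbour median at day 7.

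In undifferentiated cells 1 of 79 members was higher in Kmt2d-/- clones and 0 were lower, although most values lay on the lower side. Rpl36al had 84.8 and 116.3 CPM in Kmt2d-/- clones and 59.0, 52.4 and 55.2 CPM in Kmt2d+/+ clones at day 0, a 1.81-fold difference with no overlap (log2 0.86 ± 0.17 SE, edgeR adjusted p = 0.0411). Leaving out any 1 of the 5 clones ended this call, with adjusted p from 0.0577 to 0.239 and log2 fold changes from 0.61 (without Kmt2d-/- clone 2) to 1.07 (without Kmt2d-/- clone 1). Of all genes 2.15% passed, with 1.17% higher and 0.976% lower, beside 1.27% of the members higher. These 332 genes became 16 without Kmt2d+/+ clone 1, 912 without clone 2 and 10 without clone 3. The members' median log2 fold change was -0.18 with 60 of 79 negative, beside 0.01 over all genes. Both Kmt2d-/- clones lay below all 3 Kmt2d+/+ clones for 27 members (34.2%) and above them for 5 (6.33%), against 18.3% and 18.6% of all genes. At an unadjusted p under 0.05 there were 13 of the 79 members, 3 of them higher, and 20.2% of all genes.

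Rps29 had 74.0 and 106.1 CPM in Kmt2d-/- clones and 51.0, 43.6 and 50.0 CPM in Kmt2d+/+ clones at day 0 (log2 0.90 ± 0.25, edgeR adjusted p = 0.0907). The clones of Rps29 were separated in the same direction as at day 7, without passing. Rpl5 had 38.3 and 33.1 CPM in Kmt2d-/- clones and 33.3, 29.9 and 35.2 CPM in Kmt2d+/+ clones, which overlapped (0.12 ± 0.16, edgeR adjusted p = 0.709).

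The lowest values at day 0 included those of Rpl27, Rpl18, Rps7 and Rpl32, and no member passed as lower. Rpl27 had 23.3 and 34.0 CPM in Kmt2d-/- clones and 61.5, 33.3 and 41.5 CPM in Kmt2d+/+ clones (log2 -0.66 ± 0.31, edgeR adjusted p = 0.266), with 12% of the sum with its copies on its own row. With the copies added it was -0.24 ± 0.22. Rpl32 had 453.2 and 492.9 CPM in Kmt2d-/- clones and 694.4, 617.8 and 724.1 CPM in Kmt2d+/+ clones (-0.52 ± 0.20, edgeR adjusted p = 0.183). Rps27l had 69.8 and 58.3 CPM in Kmt2d-/- clones and 95.4, 85.4 and 89.7 CPM in Kmt2d+/+ clones, with no overlap (-0.49 ± 0.16, edgeR adjusted p = 0.132), whereas its relative Rps27 stood at 0.40 ± 0.31 and Rps27rt at -0.13 ± 0.21. Rpl39l and Rpl39 had -0.21 ± 0.40 and -0.17 ± 0.18, and Rpl7l1 and Rpl7 had -0.05 ± 0.22 and -0.31 ± 0.31.

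Over the 7 days of differentiation no member passed in the Kmt2d-/- clones, but most were on the higher side. The median log2 change, day 7 minus day 0, was 0.35 with 73 of 79 positive, beside 0.00 over all genes, of which 1.27% passed. At an unadjusted p under 0.05 there were 10 of the 79 members, all higher, and 14.8% of all genes. Day 7 was above day 0 in both mutant clones for 67 members (84.8%) and below it for 3 (3.8%), where 34.2% and 33.4% of all genes did so. On the members' own rows the largest change was that of Rpl27, with 40.6 and 63.3 CPM at day 7, against 23.3 and 34.0 CPM before differentiation (0.86 ± 0.33, edgeR adjusted p = 0.267). With its copies added it was 0.44 ± 0.24, and that of Rps29 with its copies was 0.71 ± 0.29. Rpl41 had 962.0 and 1035.7 CPM at day 7, against 587.3 and 725.2 CPM before differentiation (0.61 ± 0.27, edgeR adjusted p = 0.347). Rpl36a had 103.9 and 90.4 CPM at day 7, against 59.5 and 71.1 CPM before differentiation (0.57 ± 0.24, edgeR adjusted p = 0.322). In each of these 3 genes both clones were higher at day 7.

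In the Kmt2d+/+ clones 1 member was lower at day 7 and 0 were higher. Rpl5 had 15.5, 17.5 and 15.4 CPM on its own row at day 7, against 33.3, 29.9 and 35.2 CPM before differentiation, a fall to 0.492 of the day 0 level (log2 -1.02 ± 0.14 SE, edgeR adjusted p = 0.0146). With its copies added the change was -0.05 ± 0.20 (edgeR adjusted p = 0.893), and Gm15500 alone had 1066.7, 845.0 and 677.8 CPM at day 7, against 834.3, 918.0 and 889.5 CPM before differentiation. The call was also lost without Kmt2d+/+ clone 1 (adjusted p = 0.140) or clone 3 (adjusted p = 0.239). Of all genes 5.08% passed in these clones, 3.05% higher and 2.04% lower, beside 1.27% of the members lower. With a replicate block for clones, since day 0 and day 7 of a clone are paired, 2 of 79 members and 2789 of 15467 genes passed. Both members were lower, and the other was Rps19bp1 (-0.67, adjusted p = 0.0334). Rps19bp1 had 14, 22.1 and 18.1 CPM at day 7, against 25, 28.5 and 32 CPM before differentiation (-0.66 ± 0.20, edgeR adjusted p = 0.0849 without the block).

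The members' median change in the Kmt2d+/+ clones was -0.03 with 37 of 79 positive, beside 0.03 over all genes. Day 7 was above day 0 in all 3 clones for 2 members (2.53%) and below it for 11 (13.9%), where 31.0% and 29.1% of all genes did so. The sign of the median turned with 1 clone: it was -0.18 without Kmt2d+/+ clone 1 and 0.08 without clone 3. Clone by clone, the median log2 change was 0.53 in Kmt2d-/- clone 1 (76 of 79 up) and 0.18 in clone 2 (67 up), and 0.27 (64 up), -0.07 (24 up) and -0.31 (3 up) in Kmt2d+/+ clones 1, 2 and 3. In every clone at least 55 of the 79 members changed in one direction, and the median of Kmt2d+/+ clone 1 lay above that of Kmt2d-/- clone 2, so the genotypes overlapped. Medians over all genes were between -0.01 and 0.03 in the 5 clones. The 60S and 40S members had medians of 0.51 and 0.55 in Kmt2d-/- clone 1, and of -0.31 and -0.27 in Kmt2d+/+ clone 3.

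**Figure D5:**
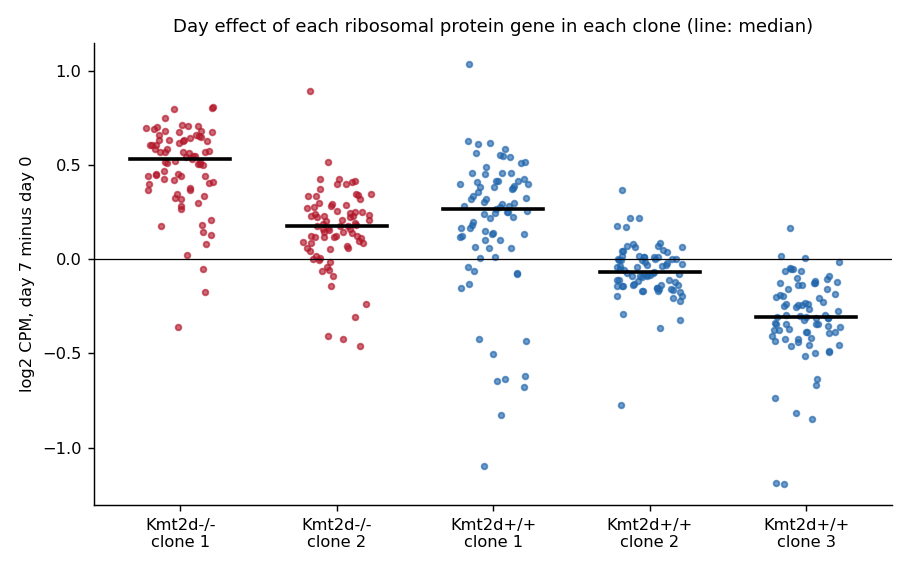
Log2 CPM at day 7 minus day 0 of each of the 79 genes in each Kmt2d-/- clone (red) and Kmt2d+/+ clone (blue), with the clone's median as a line. The medians run from 0.53 in Kmt2d-/- clone 1 to -0.31 in Kmt2d+/+ clone 3, and the line of Kmt2d+/+ clone 1 (0.27) lies above that of Kmt2d-/- clone 2 (0.18).

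The direct test of whether the day effect differed between genotypes (the interaction in edgeR) gave 0 members and 0 of all 15467 genes (0.0%). At an unadjusted p under 0.05 there were 3 members, all with a larger day effect in Kmt2d-/- clones, and 568 genes in all. DESeq2 gave 0 members and 23 genes, and limma-voom 0 members and 0 genes. The members' median interaction was 0.37 with 78 of 79 positive, beside -0.03 over all genes, and it was 0.19 without Kmt2d-/- clone 1 and 0.56 without clone 2. The day effect of both Kmt2d-/- clones exceeded that of all 3 Kmt2d+/+ clones for 20 members (25.3%), against 12.4% of all genes. These comparisons share libraries with the genotype and day comparisons above, so they are not separate evidence.

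Other genes of the translation machinery were described from lists. Fau and Rack1 encode ribosomal proteins whose symbols fall outside the rule. Neither passed in any comparison, and Rack1 had a log2 fold change of 0.25 ± 0.21 at day 7 and -0.09 ± 0.21 at day 0, Kmt2d-/- minus Kmt2d+/+ clones. Of the 77 tested mitochondrial ribosomal protein genes, which build a separate ribosome, 0 passed at day 7 and 1, Mrps28, was lower in Kmt2d-/- clones at day 0 (-1.15 ± 0.23, edgeR adjusted p = 0.0442). Of all genes 0.976% were lower at day 0. The median of the 77 genes was 0.00 at day 7 and -0.05 at day 0. Their median day effect was 0.07 in Kmt2d-/- clones and -0.06 in Kmt2d+/+ clones.

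Ribosome assembly genes gave more calls than the ribosomal proteins over differentiation. Of 63 tested ribosome biogenesis genes, 17 were lower at day 7 in the Kmt2d+/+ clones and 0 higher, with a median of -0.64, where 2.04% of all genes were lower. In the Kmt2d-/- clones 0 passed, with a median of -0.25. Without Kmt2d+/+ clone 1, or without clone 3, 0 of all genes passed over the days in Kmt2d+/+ clones, so all 17 calls ended, as did the other calls over the days in these clones given below. Dkc1, the pseudouridine synthase of H/ACA particles, had 79.1, 111.2 and 93.6 CPM at day 7, against 202.2, 171.2 and 229.0 CPM before differentiation in Kmt2d+/+ clones (-1.09 ± 0.18, edgeR adjusted p = 0.0203). Ltv1, a 40S assembly factor, had 56.0, 63.1 and 56.2 CPM at day 7, against 107.2, 89.9 and 97.7 CPM before differentiation in the same clones (-0.75 ± 0.13, edgeR adjusted p = 0.0236). At day 0 Ltv1 (-0.92 ± 0.15, edgeR adjusted p = 0.0268) and Bop1, a 60S assembly factor (-0.77 ± 0.15, edgeR adjusted p = 0.0439), were lower in Kmt2d-/- than in Kmt2d+/+ clones. These were 2 of the 63 genes, where 0.976% of all genes were lower. The median genotype difference of the 63 was -0.42 at day 0, with 4 positive. At day 7 it was -0.09, with 23 positive, and 0 passed. The interaction of these 63 genes had a median of 0.41 with 60 positive, and 0 passed.

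Of 39 translation initiation genes, Eif4a2, a helicase that unwinds messenger RNA, was higher in Kmt2d-/- clones at day 7 (0.76 ± 0.14, edgeR adjusted p = 0.0355), and Eif4a2 (-0.96 ± 0.12, edgeR adjusted p = 0.0124) and Eif6, which keeps the subunits apart (-0.85 ± 0.15, edgeR adjusted p = 0.0229), fell over the 7 days in Kmt2d+/+ clones. Of 13 elongation and termination genes, Abce1, a recycling factor, fell in Kmt2d+/+ clones (-0.68 ± 0.15, edgeR adjusted p = 0.0382), and 0 passed elsewhere. Of 32 RNA polymerase I and III genes, Cd3eap (-1.03 ± 0.19, edgeR adjusted p = 0.0265) and Polr1b (-0.90 ± 0.17, edgeR adjusted p = 0.0268), both subunits of polymerase I, fell in Kmt2d+/+ clones, and Brf1, a polymerase III factor, was higher in Kmt2d-/- clones at day 0 (1.05 ± 0.20, edgeR adjusted p = 0.0395). Among 21 mTOR and Myc regulators, Max was higher in Kmt2d-/- clones at day 7 (0.81 ± 0.16, edgeR adjusted p = 0.0474), and over the 7 days 2 rose in Kmt2d+/+ clones, Mxd1 and Mxi1, while Mycl fell. Among 20 p53 targets, Plk2 was lower in Kmt2d-/- clones at day 7 (-2.21 ± 0.40, edgeR adjusted p = 0.0355) and at day 0 (-2.69 ± 0.41, edgeR adjusted p = 0.0230), and in Kmt2d+/+ clones 3 rose and 3 fell over the 7 days. Of all genes 0.905% were higher and 0.97% lower in Kmt2d-/- clones at day 7, and 1.17% and 0.976% at day 0. Over the 7 days 3.05% rose and 2.04% fell in Kmt2d+/+ clones. With lists this small, 1 or 2 calls are not read as a result about a list. In Kmt2d-/- clones Plk2 alone of the p53 targets passed over the 7 days, as lower (edgeR adjusted p = 0.0349), where 1.27% of all genes passed. That call ended without Kmt2d+/+ clone 3 and also without either of the Kmt2d-/- clones. The genotype calls of these lists also rested on few clones. Without Kmt2d+/+ clone 3 all 3 at day 7 and all 5 at day 0 ended, and none of the 8 passed in all 5 omissions of a clone. The 17 proliferation markers had 0 calls in any comparison, and their sum was 2628.4 to 2937.4 CPM in Kmt2d-/- and 2355.2 to 2680.1 CPM in Kmt2d+/+ clones at day 7, and 2463.7 to 3562.7 CPM in Kmt2d-/- and 2680.2 to 3437.9 CPM in Kmt2d+/+ clones at day 0.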

How the data were processed

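Polyadenylated RNA of 5 ATDC5 clones at 2 days was sequenced in 10 libraries of 2 runs each. The deposited table held estimated counts per gene, not normalized. Every column was matched to a sample (0 were not). The tools were Salmon, DESeq2, limma and edgeR with the GRCm38 build, per the submitters' processing notes, with versions and annotation not given in the sources used here. Salmon divides reads among similar transcripts, so rows of near-identical genes are uncertain. TRIZOL extraction, poly(A) selection and NEBNext Ultra II libraries were used, per the labels' protocols. Whether strand was used is not given in the sources used here, so overlapping genes cannot be told apart.

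The 2 runs were summed and rounded to whole numbers. Symbols and coordinates came from GENCODE vM21 (GRCm38), and 411 identifiers had no symbol. The main fit was edgeR 4.0.16 in R 4.3.3 (filterByExpr, TMM, a mean for each of 4 groups, quasi-likelihood test, residual degrees of freedom 6), over 15467 genes with Benjamini-Hochberg adjustment. The common biological coefficient of variation was 0.385, and the number of clones limits the precision. CPM values are TMM-scaled, shares of counts are not. Log2 CPM of single libraries used a prior count of 2. Standard errors were computed from fold change and F. Copies were searched with blastn 2.17.0. The fit was also run on simulated counts, drawn with less spread than these data and without an effect shared by a clone's 2 libraries. That run therefore does not show how the fit performs on these data. Replicates are distinct clones. P-values measure the spread between these clones within a group, pooled over the 4 groups. Each clone thus entered the main fit at both days, as if its 2 libraries were independent.

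Day 0 and day 7 of a clone are the same line and so are paired: deviations from the group means correlated with r = 0.363 to 0.571 in the 5 clones. The main fit had no block, and a replicate block was an alternative. Other alternatives were DESeq2 1.42.0, limma-voom (limma 3.58.1), DESeq2's size factors, TMM without the ribosomal protein genes, a minimum mean of 5 CPM, no filter, only the groups compared, each run alone and each clone left out. Summing each gene with its copies was chosen after the data were seen, as were the neighbour medians with their level of 0.3 and the search for a C with 4 pyrimidines at the start.

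The members and lists were chosen with earlier results of these data known. Named members were 15 genes with known roles, paralogs with their parent genes, members that passed, and the 5 highest and 5 lowest by genotype difference at each day and by level per length. From each list up to 2 passing genes per comparison were named by smallest p, or else its most abundant gene. Rpl12, Rpl7a, Mycl and the copies were named after their values were seen. The lists were ribosomal proteins outside the rule, mitochondrial ribosomal proteins, translation initiation, elongation and termination, ribosome biogenesis, RNA polymerase I and III, mTOR and Myc regulators, p53 targets, and markers of cell types and proliferation. Of 8 noncoding host genes with oligopyrimidine tracts, 0 were matched. Some members and list genes that this rule names are not reported here, though counts and medians hold them.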

Additional observations from a re-analysis of the deposited data

Results flagged for a closer look

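In 4 members every Kmt2d-/- clone rose and every Kmt2d+/+ clone fell over the 7 days, which is why they are listed. Opposite directions of this kind, either way round, held for 748 of all 15467 genes (4.84%). Rpl10a, a protein of the L1 stalk, changed by 0.209 and 0.0567 on the log2 CPM scale in Kmt2d-/- clones 1 and 2, against -0.0716, -0.321 and -0.849 in Kmt2d+/+ clones 1 to 3. Its day effect was larger in the mutants by 0.547 (0.55 ± 0.29 SE). Rpl7 changed by 0.365 and 0.116 in Kmt2d-/- clones and by -0.039, -0.170 and -0.439 in Kmt2d+/+ clones, with a difference of 0.459. Rpl7a changed by 0.443 and 0.146 in Kmt2d-/- clones and by -0.0625, -0.141 and -0.495 in Kmt2d+/+ clones, with a difference of 0.537. Rps27l changed by 0.178 and 0.179 in Kmt2d-/- clones and by -0.130, -0.0843 and -0.311 in Kmt2d+/+ clones, with a difference of 0.351. The edgeR interaction test did not pass for any of the 4, with an adjusted p of 1.0 each.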

How the results depend on the processing

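Counts of members passing were small and moved with the fit. At day 7 the 4 calls (of 290 genes in all) became 0 with only the groups compared (of 55) and 2 with run 1 only (of 217). Without each Kmt2d+/+ clone in turn they became 0 to 2. At day 0 the 1 call (of 332 genes in all) became 3 in DESeq2 (of 1602), and 0 in limma-voom, in limma-voom with the replicate block as a random effect, without a low-count filter, with only the groups compared, with run 1 only and without each clone in turn (0 to 0). For day 7 against day 0 in Kmt2d+/+ clones the 1 call (of 786 genes in all) became 2 with the replicate block of clones (of 2789), 2 in DESeq2 (of 2254), 4 in limma-voom with the block as a random effect (of 3457, correlation within clones 0.49), 0 with copies summed, and 0 to 1 without each clone in turn. In Kmt2d-/- clones over the days and for the interaction the count was 0 under every alternative run, the block included. Without each clone in turn the medians ran from 0.0498 to 0.327 (genotype, day 7), -0.259 to -0.148 (genotype, day 0), 0.167 to 0.525 (days, Kmt2d-/-), -0.182 to 0.0811 (days, Kmt2d+/+) and 0.187 to 0.558 (interaction). Under the other alternatives each median moved by less than 0.05. The cause of these shifts was not tested. Among single members no called value reversed. The 6 calls were lost in 39 combinations of call and alternative, and calls were gained in 7 combinations. No fit with a fixed block exists for the genotype comparisons, because each clone has 1 genotype.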

Other observations

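The 7 matching genes below the minimum of 5 CPM included core ribosomal proteins whose counts stood on other rows. Rps12 averaged 2.17 CPM, while its copies summed to 616.6 CPM, of which Rps12-ps3 held 445.7. Rps13 averaged 3.59 CPM, while Rps13-ps1 held 189.2 CPM. Rps25 averaged 4.89 CPM, with 0.32 CPM on copies in the table. Rpl22l1, a relative of Rpl22, averaged 0.176 CPM and its copy Gm15421 5.84 CPM. Rpl3l, the muscle relative of Rpl3, averaged 0.0706 CPM (36 counts over all libraries), and Rpl10l, the testis relative of Rpl10, had 0 counts. These genes are not among the 79 members.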
